A study of Mus musculus with 16 samples.

Results

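The TAM receptors are the receptor tyrosine kinases Tyro3, Axl and Mertk, and their ligands are Gas6 and protein S, the product of Pros1. These 5 genes were chosen by their gene symbols, and each symbol matched 1 row among the 14504 listed genes. The choice was made with measured values of these libraries in view, namely earlier dexamethasone (DEX) and stress differences, so their levels and their DEX and stress differences are given as a description without p-values. Adjusted p-values are given for other genes of the pathway and for marker genes, whose lists were also drawn up with earlier results known and are not independent evidence.

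The libraries hold polyA RNA of the dorsal raphe nucleus (DRN), a source of serotonin fibers to the forebrain, punched from frozen sections of adult male C57BL/6 mice. Control mice had no defeat experience. The stressed mice were defeated repeatedly by aggressive partners over 30 days and were sorted by their behavior during non-aggressive contact into a passive coping (PS) and an active coping (AS) phenotype, which the labels call dep1 and dep2. Every mouse received an injection, either saline or 2 mg/kg of DEX, a synthetic glucocorticoid, 6 h before the tissue was collected, so the saline groups share the injection and the delay. There were 3 control saline, 3 control DEX, 2 PS saline, 3 PS DEX, 3 AS saline and 2 AS DEX libraries. Each library is 1 animal, and single libraries are named by their labels (con_sal_102 for a control saline library). The study left out DEX animals of the stressed phenotypes with low Tph2 before its analysis, so the serotonergic content of these groups was in part selected.

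Depth was 38207157 to 62447298 reads in the listed genes, and the 5 genes held from 324 reads (the lowest Mertk value) to 6820 reads (the highest Gas6 value) in a library. Tph2, the rate-limiting enzyme of serotonin synthesis, was at 91764 normalized counts or more in every library, and none of the 10 serotonin neuron markers was at 0 in any library. Fkbp5, a glucocorticoid receptor target, was at 1241 to 1536 normalized counts in the 8 saline libraries and at 5578 to 6958 in the 8 DEX libraries. A normalized count is the number of reads of a gene divided by 1 size factor per library, and it is comparable between libraries for 1 gene. Comparisons between genes are made only per kilobase (kb) of exon.

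Gas6 and protein S are secreted proteins that are made active by vitamin K dependent carboxylation. They bind phosphatidylserine on dying cells or shed membranes with their Gla domain and a TAM receptor with the other end, and so bridge the cell to be eaten to the phagocyte. Gas6 binds all of the TAM receptors, whereas protein S is known as a ligand of Tyro3 and Mertk. In brain, Mertk is known from microglia and astrocytes, where it serves engulfment of dead cells and of synaptic material, Axl is known from microglia and vascular cells, and Tyro3 is the TAM receptor best known from neurons. Outside the brain, Mertk is known as a glucocorticoid-induced gene of macrophages.

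In the GENCODE vM21 annotation of GRCm38, all 5 genes are protein coding. Mertk (ENSMUSG00000014361.5) lies at chr2:128698956-128802894 on the plus strand and Tyro3 (ENSMUSG00000027298.17) at chr2:119797733-119818104 on the plus strand. Axl (ENSMUSG00000002602.16) lies at chr7:25757273-25788705 on the minus strand, Gas6 (ENSMUSG00000031451.6) at chr8:13465374-13494490 on the minus strand and Pros1 (ENSMUSG00000022912.8) at chr16:62854307-62929346 on the plus strand. The antisense gene Gm14011 and the snoRNA gene Gm23172 lie within Mertk but share 0 exon bases with it, and Gas6 shares 34 exon bases with Tmem255b on the opposite strand. Whether reads were counted by strand is not stated, so reads in those 34 bases cannot be assigned to 1 of the 2 genes.

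The promoters of Mertk and Tyro3 are shown because these receptors differed in opposite directions between DEX and saline libraries. Each sequence runs from 250 bases before to 50 bases after the RefSeq transcription start, 5′ to 3′ on the strand of the gene, in build GRCm38.p6 (Mertk chr2:128698665-128698964, Tyro3 chr2:119799264-119799563). Capitals mark a match to the glucocorticoid receptor half-site.
Mertk: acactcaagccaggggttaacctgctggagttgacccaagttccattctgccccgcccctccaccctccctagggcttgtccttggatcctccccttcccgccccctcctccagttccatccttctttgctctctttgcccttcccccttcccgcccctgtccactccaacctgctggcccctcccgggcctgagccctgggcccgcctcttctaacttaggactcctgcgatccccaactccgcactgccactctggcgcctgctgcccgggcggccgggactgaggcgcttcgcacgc
Tyro3: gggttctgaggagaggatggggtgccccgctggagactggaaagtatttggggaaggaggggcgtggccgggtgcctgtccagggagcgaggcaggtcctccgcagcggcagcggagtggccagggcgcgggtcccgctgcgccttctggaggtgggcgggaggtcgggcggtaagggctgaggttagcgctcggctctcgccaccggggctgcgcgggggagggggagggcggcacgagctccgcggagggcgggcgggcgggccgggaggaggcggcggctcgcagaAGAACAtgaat

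The letters searched on both strands were the glucocorticoid receptor half-site TGTTCT, the palindrome of 2 such half-sites with 3 bases between them, the nuclear receptor half-site AGGTCA, and its direct repeat with 4 bases between the copies, the arrangement known for liver X receptors. The palindrome holds the half-site and the repeat holds AGGTCA. Tyro3 held 1 half-site, on the minus strand at bases 40 to 45 after the start (read as AGAACA on the strand of the gene), and the other 4 promoters held none of the 4 motifs. Among 32851 RefSeq promoters of this length, 19.0% held the half-site, 0.00913% the palindrome, 16.3% AGGTCA and 0.0152% the direct repeat. Mertk and Tyro3 had promoters of 66.0% and 73.3% GC, and the median of all promoters was 52.7%. Sites farther from the start were not searched, and the Tyro3 window begins downstream of the first base of the gene in GENCODE.

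Mertk, the engulfment receptor, was higher in every DEX library than in any saline library. The control saline libraries con_sal_102, con_sal_104 and con_sal_114 held 597, 330 and 424 normalized counts, and the control DEX libraries con_dex_101, con_dex_116 and con_dex_122 held 1468, 1215 and 1275. The PS saline libraries dep1_sal_62 and dep1_sal_68 held 580 and 655 normalized counts, and the PS DEX libraries dep1_dex_6, dep1_dex_34 and dep1_dex_64 held 1468, 1664 and 1812. The AS saline libraries dep2_sal_8, dep2_sal_14 and dep2_sal_40 held 481, 545 and 383 normalized counts, and the AS DEX libraries dep2_dex_38 and dep2_dex_42 held 1333 and 1600. The lowest DEX library of all was thus con_dex_116, and it stood above the highest saline library, dep1_sal_68. Of all genes, 1.88% had no overlap between the 8 DEX and the 8 saline libraries.

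In controls the Mertk mean was 450 ± 136 normalized counts (SD, n = 3) after saline and 1319 ± 132 (SD, n = 3) after DEX, a log2 difference of 1.59 ± 0.19 (SE) or 3.0-fold. In PS it was 618 ± 53.0 (SD, n = 2) and 1648 ± 173 (SD, n = 3), a log2 difference of 1.41 ± 0.22 (SE) or 2.66-fold. In AS it was 469 ± 81.7 (SD, n = 3) and 1466 ± 189 (SD, n = 2), a log2 difference of 1.65 ± 0.22 (SE) or 3.14-fold. Averaged over the 3 phenotypes, the log2 difference was 1.55 ± 0.12 (SE), with a 95% interval from 1.29 to 1.81.

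Tyro3, the receptor best known from neurons, was lower in every DEX library than in any saline library. The control saline libraries con_sal_102, con_sal_104 and con_sal_114 held 3204, 3208 and 2726 normalized counts, and the control DEX libraries con_dex_101, con_dex_116 and con_dex_122 held 2185, 1941 and 1962. The PS saline libraries dep1_sal_62 and dep1_sal_68 held 2867 and 3077 normalized counts, and the PS DEX libraries dep1_dex_6, dep1_dex_34 and dep1_dex_64 held 2441, 1950 and 2076. The AS saline libraries dep2_sal_8, dep2_sal_14 and dep2_sal_40 held 3044, 3133 and 2728 normalized counts, and the AS DEX libraries dep2_dex_38 and dep2_dex_42 held 2142 and 1887. The gap between the treatments was narrowest between dep1_dex_6 and con_sal_114. The log2 difference of Tyro3 was -0.58 ± 0.11 (SE) for controls, -0.47 ± 0.12 (SE) for PS and -0.56 ± 0.12 (SE) for AS. The average over the phenotypes was -0.54 ± 0.07 (SE), with a 95% interval from -0.68 to -0.39, which is 0.689 of the saline level.

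Axl, the third TAM receptor, ranged from 1641 to 2201 normalized counts in the 8 saline libraries (median 1831) and from 1587 to 1885 in the 8 DEX libraries (median 1731). The ranges overlapped widely. Its log2 differences after DEX were -0.16 ± 0.11 (SE) for controls, -0.05 ± 0.12 (SE) for PS and -0.14 ± 0.12 (SE) for AS, with an average of -0.12 ± 0.07 (SE). The average has a 95% interval from -0.26 to 0.03.

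Gas6, the ligand of all TAM receptors, ranged from 4352 to 5366 normalized counts after saline (median 5044) and from 4289 to 5575 after DEX (median 4714). Its average log2 difference was -0.04 ± 0.07 (SE), with a 95% interval from -0.19 to 0.12. Pros1, which encodes protein S, ranged from 482 to 724 normalized counts after saline (median 553) and from 462 to 855 after DEX (median 653). The log2 differences of Pros1 were 0.29 ± 0.21 (SE) for controls, 0.20 ± 0.24 (SE) for PS and -0.26 ± 0.24 (SE) for AS. They moved with single libraries, in controls to 0.18 without con_dex_122 and 0.49 without con_dex_101, in PS to 0.04 without dep1_dex_64 and 0.40 without dep1_dex_6, and in AS to -0.46 without dep2_dex_38 and -0.06 without dep2_dex_42. Its average was 0.08 ± 0.13 (SE), with a 95% interval from -0.21 to 0.36. Neither ligand separated DEX from saline libraries in any phenotype.

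**Figure D1:**
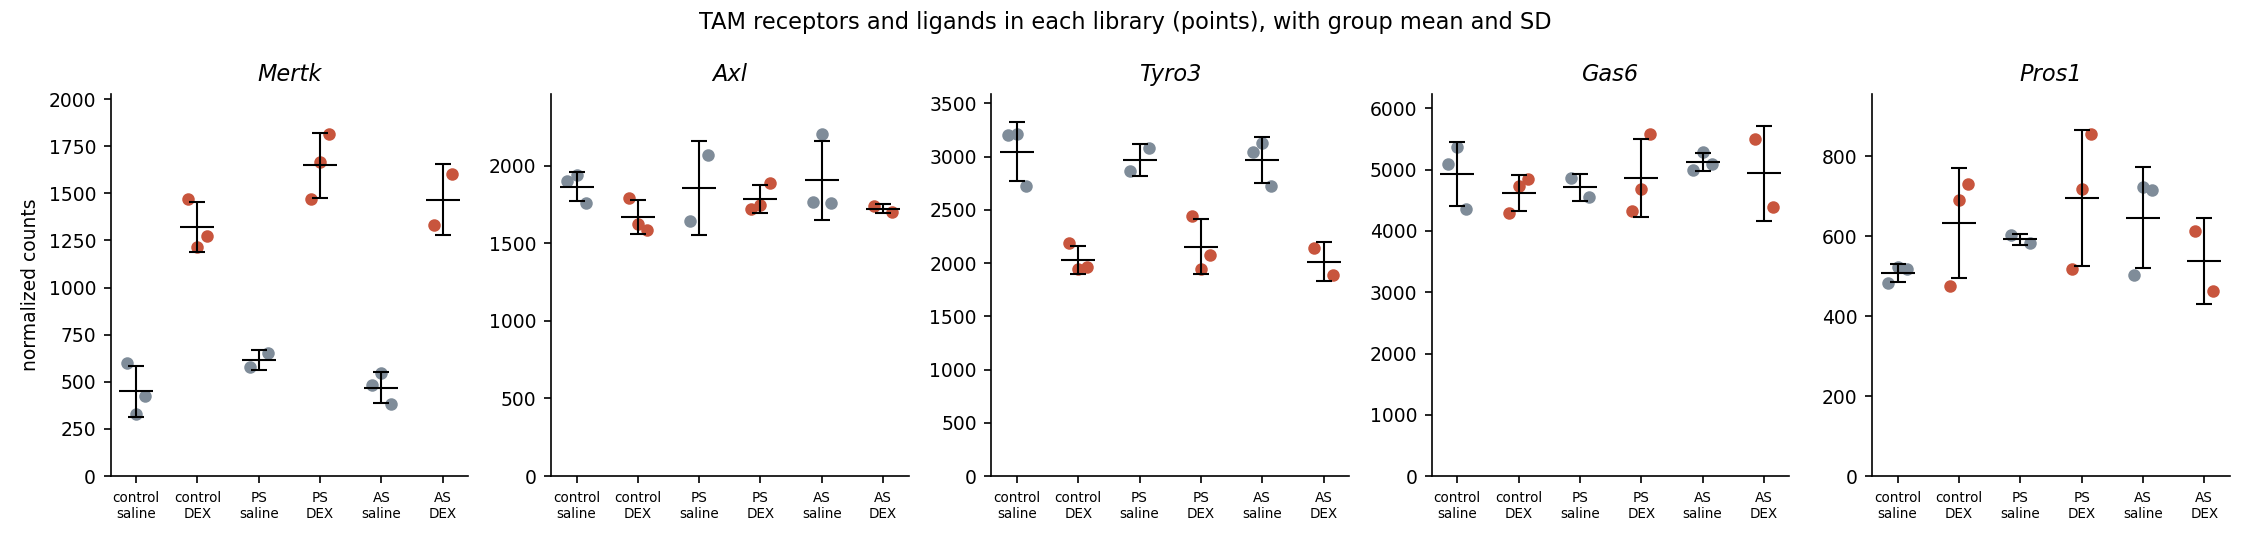
Normalized counts (y axis, from 0) of the 5 genes in each of the 16 libraries (points, saline grey and DEX red) by group (x axis), with the group mean and SD as bars. Mertk lies between 330 and 655 in all saline libraries and between 1215 and 1812 in all DEX libraries, Tyro3 between 2726 and 3208 in saline and between 1887 and 2441 in DEX libraries, and the other genes overlap between the treatments.

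In the limma fit over all genes, with Benjamini-Hochberg (BH) adjustment and a gene called at an adjusted p under 0.1, 2 of the 5 genes were called after DEX in controls (Mertk higher, Tyro3 lower), where 1.26% of all genes were called. In PS it was 1 of 5 (Mertk) beside 0.703% of all genes, and in AS 2 of 5 (Mertk and Tyro3) beside 0.689%. In the average over the phenotypes 2 of 5 were called beside 4.31%, with 2.78% of all genes called higher and 1.53% lower. Since these contrasts were in view when the genes were chosen, nothing is read from these counts. Mertk and Tyro3 also had no overlap between the DEX and saline libraries of each phenotype, and Axl had none in AS, where all DEX libraries were below the saline ones. The share of all genes with no overlap was 15.9% for controls, 21.3% for PS and 29.8% for AS.

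Calls of Mertk and Tyro3 within a phenotype depended on single libraries. These contrasts were in view when the genes were chosen, so nothing is read from the calls. Mertk was not called in PS without dep1_sal_62 (log2 difference 1.32), nor in AS without dep2_dex_42 (1.52) or when only the AS libraries were fitted. Tyro3 lost its call in controls without con_dex_122 and in AS without any one of con_dex_122, dep2_sal_8, dep2_sal_14, dep2_dex_38 and dep2_dex_42. It lost both calls when only the groups compared were fitted. In PS, Tyro3 was called by DESeq2, with library weights, or without dep1_dex_6 (log2 difference -0.56). Axl was called in AS with library weights alone, at a log2 difference of -0.30.

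The differences between the DEX effects of the phenotypes derive from the same contrasts and are given as a description too. Of the 15 differences (5 genes in 3 pairs of phenotypes), 0 were called or had an unadjusted p under 0.05 by limma, DESeq2 or edgeR, and 0% of all genes were called in each of the 3 pairs by limma. For Mertk, the DEX effect in PS minus that in controls was -0.18 ± 0.29 (SE) on the log2 scale, with a 95% interval from -0.80 to 0.45. In AS minus controls it was 0.06 ± 0.29 (SE), from -0.56 to 0.69, and in AS minus PS 0.24 ± 0.31 (SE), from -0.42 to 0.89. For Tyro3 the differences were 0.11 ± 0.16, 0.02 ± 0.16 and -0.09 ± 0.17 (SE) in the same order, and the widest of their 95% intervals ran from -0.45 to 0.27. The largest point estimates were those of Pros1, whose effect in AS was lower than in controls by 0.55 ± 0.32 (SE) (95% interval -1.24 to 0.13) and lower than in PS by 0.46 ± 0.34 (SE) (95% interval -1.18 to 0.26). Without 1 library these estimates ran from -0.76 (without dep2_dex_38) to -0.35 (without dep2_dex_42) and from -0.67 (without dep2_dex_38) to -0.26 (without dep2_dex_42).

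**Figure D2:**
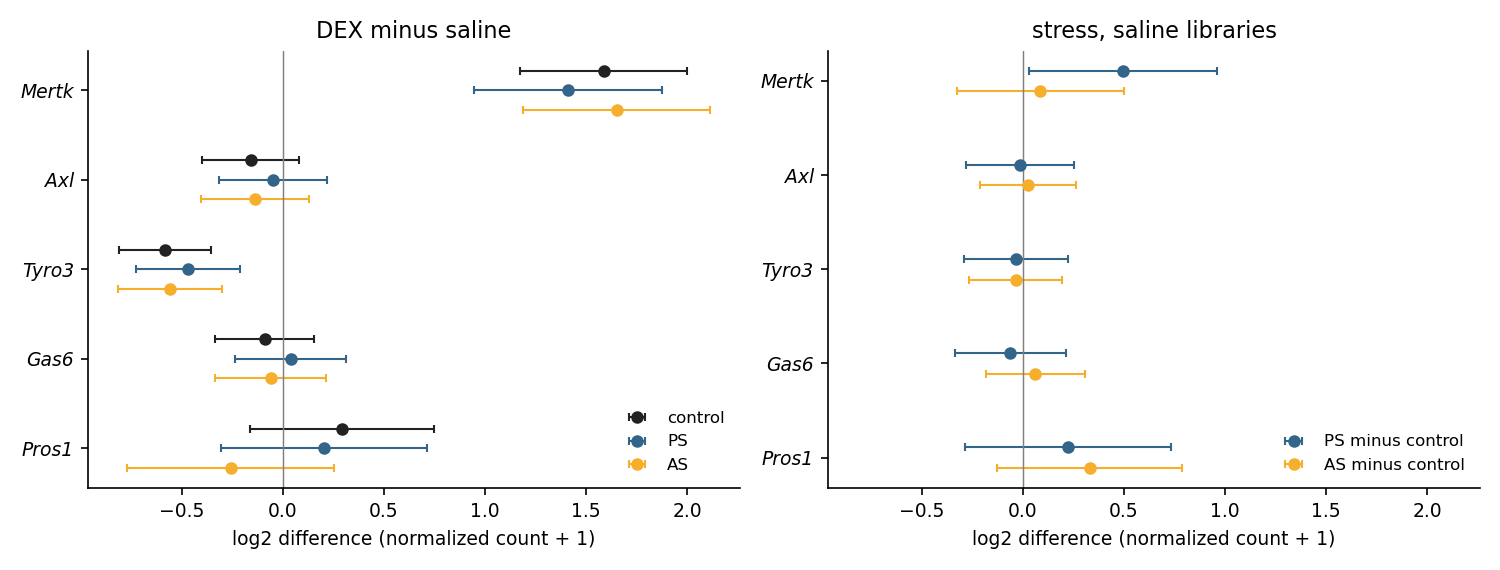
Log2 differences of the 5 genes (y axis) with 95% intervals from the fit over 16 libraries (x axis, log2 of normalized count + 1). On the left, DEX minus saline is shown for each phenotype, with Mertk at 1.41 to 1.65 and Tyro3 at -0.58 to -0.47. On the right, PS or AS minus control in saline libraries is shown, where the point of Mertk in PS is at 0.50 and the other 9 lie between -0.06 and 0.33.

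Chronic stress was compared within saline and within DEX libraries. Mertk in saline was higher in PS than in controls by 0.50 ± 0.22 (SE) on the log2 scale, and the groups overlapped, since con_sal_102 at 597 stood above dep1_sal_62 at 580. This difference was 0.29 without con_sal_104 and 0.72 without con_sal_102. Mertk was higher in AS than in controls by 0.09 ± 0.19 (SE), a difference that changed sign to -0.12 without con_sal_104, and lower in AS than in PS by 0.41 ± 0.22 (SE). Tyro3 differed by -0.03 ± 0.12 (SE) between PS and control saline libraries and by -0.04 ± 0.11 (SE) between AS and control ones. Axl differed by -0.02 ± 0.12 (SE) and 0.02 ± 0.11 (SE), and Gas6 by -0.06 ± 0.13 (SE) and 0.06 ± 0.11 (SE). Pros1 was higher by 0.22 ± 0.24 (SE) in PS and by 0.33 ± 0.21 (SE) in AS. Within DEX libraries Mertk was higher in PS than in controls by 0.32 ± 0.19 (SE) and in AS than in controls by 0.15 ± 0.22 (SE).

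None of the 5 genes was called in any of the 6 stress contrasts, by limma, DESeq2 or edgeR. The stress differences were in view when the genes were chosen, so nothing is read from these counts. Shares of all genes called are given for limma only. By limma 0% of all genes were called in 5 of them and 0.00689% (1 gene) in AS against control DEX libraries. The study, with DESeq2 at the same threshold and more DRN libraries, reported genes in each of the saline stress contrasts. At an unadjusted p under 0.05 each of the 3 tools gave 1 of the 5 genes in PS against control saline libraries, where limma gave 1112 of all 14504 genes, and 0 in the other contrasts. In saline, libraries did not overlap for Pros1 in PS against control (PS above, as for 28.5% of all genes in either direction), and for Mertk (AS below) and Gas6 (AS above) in AS against PS, as for 23.6% of all genes. In AS against control saline libraries none of the 5 genes was free of overlap, beside 4.49% of all genes. In DEX libraries none of the 5 was free of overlap either, beside 7.66% in PS against control, 30.3% in AS against control and 19.1% in AS against PS.

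Levels of the 5 genes were put in order per kb of exon. Gas6 was the highest of the 5 in all 16 libraries, at 1944 ± 137 normalized counts per kb (SD, n = 8) after saline and 1882 ± 196 (SD, n = 8) after DEX. Averaged over all libraries, 92.8% of the 14493 genes with a length lay below Gas6, 63.3% below Tyro3, 59.2% below Axl, 46.0% below Mertk and 34.3% below Pros1. In all 8 saline libraries the order of the upper places was Gas6, Tyro3 and Axl. Tyro3 was at 484 ± 32.1 and Axl at 373 ± 37.0 normalized counts per kb (SD, n = 8). Mertk at 115 ± 26.3 and Pros1 at 142 ± 23.0 (SD, n = 8) shared the last places within their spread, with Mertk last in 6 of 8 saline libraries.

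After DEX the receptors lay at one level per kb of exon, which rests on the exon lengths used. Mertk was at 341 ± 47.2, Axl at 343 ± 18.5 and Tyro3 at 334 ± 29.4 normalized counts per kb (SD, n = 8), so the neighbors in this order differed by less than their spread. Mertk came second, after Gas6, in 3 of the 8 DEX libraries, and Pros1, at 155 ± 34.2, was last in all 8. These orders rest on differences that were in view when the genes were chosen, and they were not tested.

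The summed level of the receptors differed between the treatments by less than its SD, at 972 ± 75 normalized counts per kb (SD, n = 8) after saline and 1019 ± 71.6 (SD, n = 8) after DEX, with ranges from 877 to 1068 and from 917 to 1127. Their shares of this sum differed. Mertk made up 11.8% ± 2.26 (SD, n = 8, range 7.77 to 14.5%) after saline and 33.4% ± 2.83 (SD, n = 8, range 30.6 to 37.1%) after DEX. Tyro3 made up 49.8% ± 1.99 (SD, n = 8) after saline and 32.9% ± 2.59 (SD, n = 8) after DEX, and Axl 38.4% ± 1.92 and 33.7% ± 1.05 (SD, n = 8 each). Tyro3 was 3.29 to 6.80 times Mertk per kb in saline libraries and 0.802 to 1.16 times in DEX libraries. The ratio of Gas6 to Pros1 per kb was 13.9 ± 2.19 (SD, n = 8) after saline and 12.5 ± 2.06 (SD, n = 8) after DEX. The exon length counts every annotated exon of a gene once, so a gene that uses part of its exons is placed too low in these orders. The sum, the shares and the ratios rest on the same lengths.

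**Figure D3:**
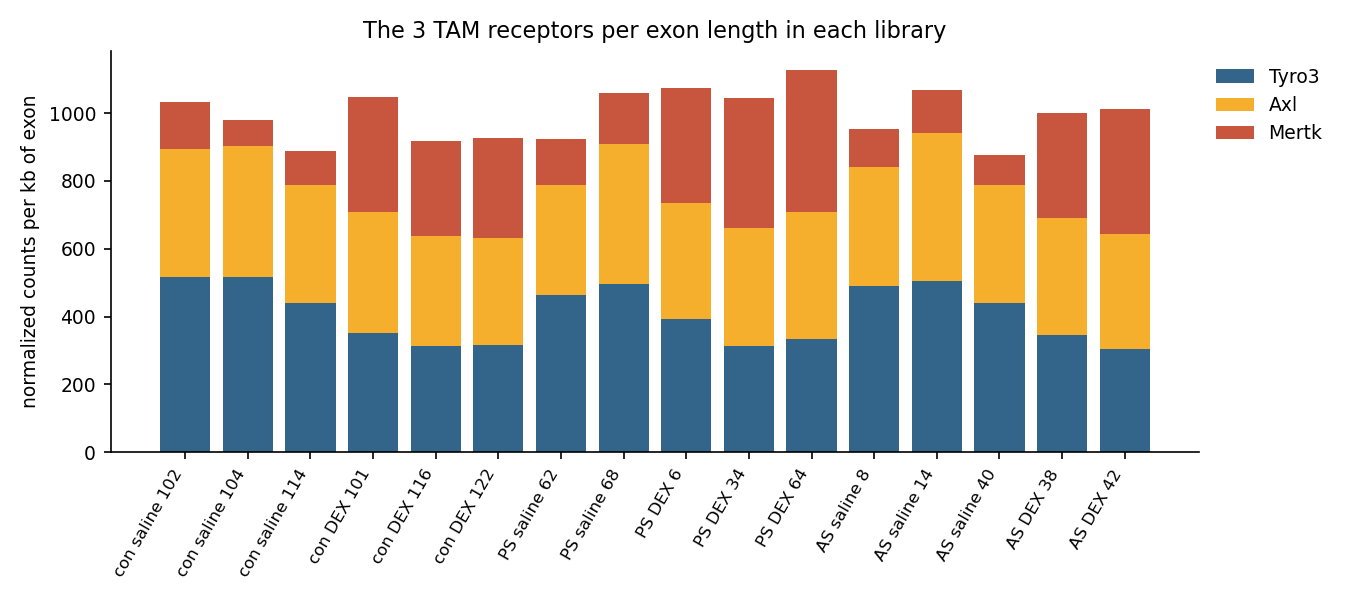
Stacked bars of Tyro3, Axl and Mertk in normalized counts per kb of exon (y axis, from 0) for each of the 16 libraries (x axis). The height of the bars runs from 877 to 1068 in saline and from 917 to 1127 in DEX libraries, and the Mertk share is 7.77 to 14.5% in saline and 30.6 to 37.1% in DEX libraries.

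Cell type markers that differed along with DEX are given beside these results. In the average DEX contrast 2.78% of all genes were called higher and 1.53% lower. Of the microglia markers, 4 of 11 were called lower and 0 higher, with Cx3cr1, the fractalkine receptor, at a log2 difference of -0.83 ± 0.09 (SE, limma adjusted p = 9.72e-05). Their summed level ranged from 9313 to 14795 normalized counts in saline and from 8393 to 10075 in DEX libraries. Of the astrocyte markers, 2 of 12 were called higher, the connexin gene Gjb6 at 0.58 ± 0.08 (SE, limma adjusted p = 0.000737) and the growth factor receptor gene Fgfr3 at 0.55 ± 0.09 (SE, limma adjusted p = 0.00248), and 0 lower. Their summed level ranged from 146786 to 180352 in saline and from 159950 to 172548 in DEX libraries. Of the myelin markers 6 of 12 were called lower, and of the oligodendrocyte precursor markers 3 of 8 were called higher and 1 lower. Of the endothelium markers 1 of 12 was called lower, Tek at -0.46 ± 0.13 (SE, limma adjusted p = 0.0848), and of the mural cell markers 1 of 10, Vtn at -0.63 ± 0.14 (SE, limma adjusted p = 0.0221). Their summed levels ranged from 8197 to 12676 and from 6593 to 10917 in saline, and from 9037 to 11107 and from 6212 to 9417 in DEX libraries. Of the 12 markers of perivascular macrophages and blood leukocytes only Lyz2 was in the table, at 99.8 to 173 normalized counts in saline and 55.6 to 126 in DEX libraries, and it was called lower (-0.73 ± 0.16 SE, limma adjusted p = 0.0199). Of the 2 perivascular fibroblast markers in the table, Pdgfra was called higher, and the oligodendrocyte precursor list also holds it. Of the 4 choroid plexus, 13 neuron and 10 serotonin neuron markers none was called (limma). No marker named here, and none of the microglia, astrocyte, endothelium or mural cell markers in the table, was at 0 in any library. The part of these markers in the Mertk, Tyro3 and Axl differences was not tested. In tissue punches, fewer cells of a type and less RNA per cell cannot be told apart.

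Likeness to other genes was measured as Pearson's r between deviations from the group mean of log2(normalized count + 1) over the 16 libraries, among 12862 genes with a mean of at least 100. Group differences are removed in this measure, but library depth, dissection and base composition are shared by all points, so r is a description. The genes most like Mertk were Gm47798 (r = 0.938), Mir1188 (0.936) and Exoc1 (0.934), an exocyst subunit. Those most like Tyro3 were Ppif (0.939), the mitochondrial cyclophilin, Sall2 (0.928) and Asb16 (0.909). Those most like Axl were Acss2 (0.916), an acetyl-CoA synthetase, Tbc1d7 (0.902) and Lmo2 (0.880). Mertk, Tyro3 and Axl were only loosely related to each other, with r from 0.11 (Mertk and Tyro3) to 0.46 (Axl and Tyro3).

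Within groups, the ligands followed markers of ciliated ependymal cells most closely among the marker lists compared. The genes most like Pros1 were Vim (r = 0.969), an intermediate filament gene, Serpinh1 (0.969), a collagen chaperone, and Pih1d2 (0.969). Those most like Gas6 were Fam189a2 (0.961), Ttc34 (0.953) and Ttc12 (0.950). The median r with the 10 ependymal cilia markers was 0.90 for Pros1 and 0.78 for Gas6, with all 10 positive for each, and -0.42 for Tyro3, with 0 of 10 positive. Over all 12862 genes the median r was between -0.03 and 0.00 for each of the 5 genes. Pros1 also had medians of 0.51 with the astrocyte markers (9 of 12 positive) and 0.31 with the serotonin neuron markers (9 of 10). Its upper quartile over all genes was 0.28. Gas6 had a median of 0.37 with the serotonin neuron markers (10 of 10), beside an upper quartile of 0.23. Tyro3 had a median of 0.38 with the neuron markers (12 of 13), beside an upper quartile of 0.35. Gas6 and Pros1 correlated at r = 0.71. The summed ependymal cilia level ranged from 3511 to 12310 normalized counts in saline and from 1402 to 20185 in DEX libraries. dep1_dex_6 had the lowest and dep1_dex_64 the highest sum, and Pros1 was at 517 and 855 there, the lowest and the highest value of its group. In the AS DEX libraries dep2_dex_38 and dep2_dex_42 the sum was 11908 and 3070, and Pros1 was at 614 and 462. The ependymal cilia list had 0 of 10 markers called after DEX in the average (limma), and its part in the Pros1 differences was not tested. Mertk had a median r of -0.59 with the serotonin neuron markers (1 of 10 positive) and of 0.59 with the oligodendrocyte precursor markers (8 of 8 positive). It had -0.10 with the astrocyte markers (5 of 12 positive, from -0.71 to 0.74) and -0.35 with the microglia markers (2 of 10 positive). The quartiles of r with Mertk over all genes were -0.41 and 0.43, and the astrocyte and microglia medians lay between them.

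**Figure D4:**
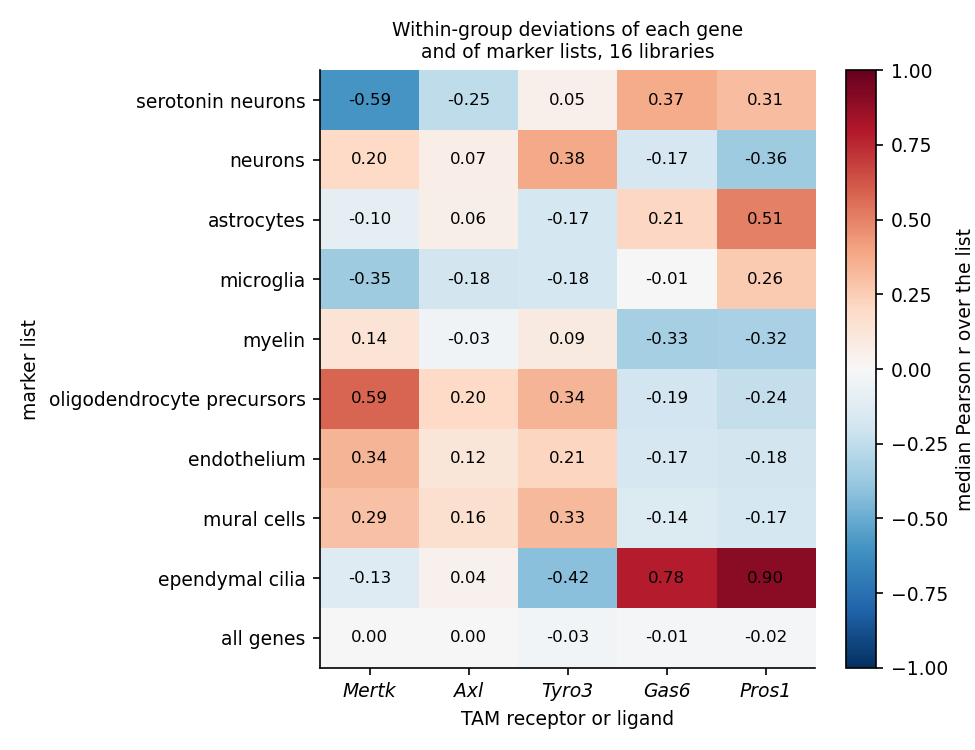
Median Pearson's r over the genes of each marker list (y axis) with each of the 5 genes (x axis), from deviations around the group means in 16 libraries. The cells of Pros1 and Gas6 with ependymal cilia stand at 0.90 and 0.78, and the row for all genes lies between -0.03 and 0.00.

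The other genes of the pathway were taken from 7 lists of 110 genes, of which 85 were in the table. In the average DEX contrast 4 of the 85 were called higher and 3 lower, beside 2.78% and 1.53% of all genes, and their median log2 difference was 0.01 beside 0.00 over all genes. Within phenotypes 2 were called in controls, 1 in PS and 1 in AS (limma), beside 1.26%, 0.703% and 0.689% of all genes. The calls in the average stood in 4 lists. Beside 4.31% of all genes called there, nothing is read from a list with 0 or 1 call.

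Of the genes of engulfment, 1 of 17 was called. Abca1, a lipid transporter that macrophages switch on while they digest dead cells, rose from 1352 ± 275 normalized counts (SD, n = 8) to 2516 ± 394 (SD, n = 8), a log2 difference of 0.90 ± 0.13 (SE, limma adjusted p = 0.000878). The others of this list, among them Elmo1, Dock1 and Rac1, which drive the actin rearrangement of engulfment, were not called, with log2 differences of 0.18 ± 0.13, -0.14 ± 0.07 and -0.07 ± 0.05 (SE). Of the other bridging molecules and engulfment receptors, 1 of 12 was called. Itgav, the integrin subunit that pairs with the bridging protein of Mfge8, rose from 1780 ± 273 to 2273 ± 248 normalized counts (SD, n = 8 each), by 0.34 ± 0.10 (SE, limma adjusted p = 0.0836), and lost its call in 10 of the 16 leave-one-out fits. Mfge8 itself had a log2 difference of -0.37 ± 0.12 (SE, limma adjusted p = 0.162).

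Of the genes of TAM signaling, 1 of 17 was called. Tns2, a focal adhesion protein known to bind Axl, rose from 1145 ± 247 to 1613 ± 199 normalized counts (SD, n = 8 each), by 0.51 ± 0.12 (SE, limma adjusted p = 0.0365), and was lost without dep1_sal_68, dep2_dex_38 or dep2_dex_42 (adjusted p up to 0.116). Grb2, the PI3 kinase subunits and Akt1, which carry the signal of the activated kinases, were not called, and among them Pik3r1 had the smallest p, with 0.27 ± 0.08 (SE, limma adjusted p = 0.105).

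Of the nuclear receptors and transcription factors, 1 of 10 was called higher and 3 lower. Maf, which encodes a transcription factor of macrophages, rose from 867 ± 162 to 1301 ± 158 normalized counts (SD, n = 8 each), by 0.59 ± 0.11 (SE, limma adjusted p = 0.00651). Nr3c1, the glucocorticoid receptor gene, fell from 6258 ± 536 to 4389 ± 620 normalized counts (SD, n = 8 each), with a log2 difference of -0.54 ± 0.07 (SE, limma adjusted p = 0.000423). Nr3c2, the mineralocorticoid receptor gene, had -0.36 ± 0.08 (SE, limma adjusted p = 0.0299) and was lost without dep1_sal_62 or dep2_dex_42. Rxrg, the retinoid X receptor gamma gene, had -0.42 ± 0.11 (SE, limma adjusted p = 0.0562) and was no longer called in 6 of the 16 leave-one-out fits. Log2 differences in controls, PS and AS were 0.94, 0.82 and 0.95 for Abca1 and 0.82, 0.60 and 0.35 for Maf. They were -0.29, -0.61 and -0.72 for Nr3c1, -0.16, -0.45 and -0.46 for Nr3c2, and -0.58, -0.74 and 0.06 for Rxrg. The point estimate of Rxrg in AS, which has 2 DEX libraries, was thus not negative. No gene was called for a difference between DEX effects of the phenotypes (limma). The liver X receptor genes Nr1h2 and Nr1h3, known as regulators of Mertk in macrophages, had log2 differences of -0.01 ± 0.09 and -0.22 ± 0.15 (SE). Neither was called. Abca1, Maf and Nr3c1 kept their calls in each of the 16 leave-one-out fits.

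The lists of phosphatidylserine exposure (12 genes), of receptor shedding and turnover (7 genes) and of the vitamin K cycle and other Gla proteins (10 genes) had no call. In the average 4.31% of all genes were called, so nothing is read from the lack of calls in such short lists. Adam10 and Adam17, the proteases known to shed TAM receptors, had log2 differences of 0.06 ± 0.05 and 0.11 ± 0.11 (SE). Ggcx, the carboxylase that activates Gas6 and protein S, had 0.07 ± 0.09 (SE). Among them Xkr6, a scramblase family gene of phosphatidylserine exposure, had the highest log2 difference, at 0.56 ± 0.21 (SE, limma adjusted p = 0.241). Chronic stress called 0 of the 85 genes in any of the 3 saline contrasts by limma, DESeq2 or edgeR. By limma 0% of all genes were called in each of the 3, so this count says nothing particular about the pathway. Shares of all genes by DESeq2 and edgeR are not given for these contrasts. At an unadjusted p under 0.05 limma gave 7 in PS against control, 2 in AS against control and 8 in AS against PS, beside 1112, 347 and 494 of all 14504 genes.

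**Figure D5:**
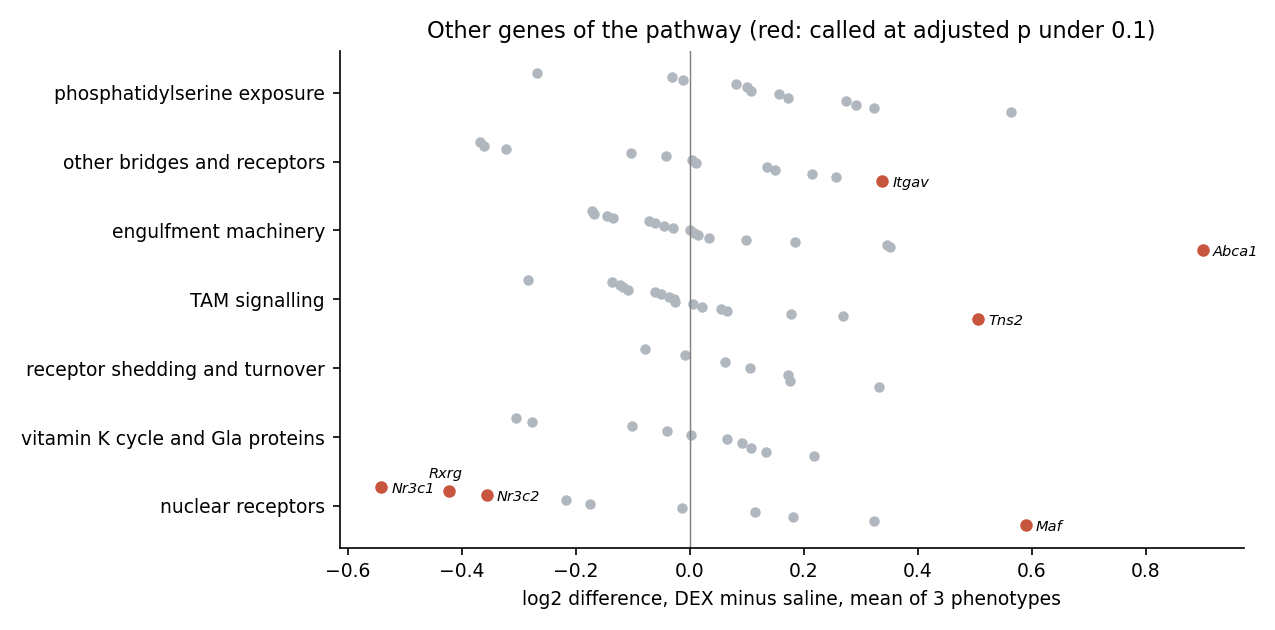
Log2 difference between DEX and saline libraries, averaged over the 3 phenotypes (x axis), for each of the 85 pathway genes (points) by list (y axis). The 7 called genes are red and named, with Abca1 at 0.90 and Nr3c1 at -0.54 at the ends.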

How the data were processed

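PolyA RNA of 16 DRN libraries from 6 groups was analyzed, and the groups were taken from the labels. According to the labels and methods of the study, the authors trimmed reads with fastp 0.20.1, aligned them with HISAT2 2.2.1 to mm10 (GRCm38), and counted them with featureCounts of Subread 2.0 and GENCODE vM22. The libraries were strand-specific, and whether counting used the strand is not given in the sources used here. The deposited values are a signal: normalized counts, which the authors made by dividing gene counts by a DESeq2 1.36.0 size factor per library. Multiplied by that factor, 100% of the values were whole reads (tolerance 0.01). The authors' tables of comparisons hold log2 fold changes and p-values and were not used.

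Since the deposited values are not counts, log2(normalized count + 1) was fitted with limma 3.58.1 (R 4.3.3) as 6 group means estimated together, using eBayes with a trend (10 residual and 3.88 prior degrees of freedom). All 14504 genes were tested with BH adjustment, and the threshold for a call was 0.1, that of the study. The study used DESeq2 on more DRN libraries and reported more DEX genes in each phenotype than limma called here. It also reported 1 DRN gene whose DEX effect depended on stress. The pseudocount of 1 makes fold changes of low genes too small. The members and lists were chosen with earlier results of these data known. Named were the 5 members, the 3 genes most like each, the called pathway genes (at most 4 per list), Tph2 and Fkbp5, and list genes on which a statement turns. Pathway genes given without a call were picked by role after their values were seen. Alternatives were pseudocounts of 0.1 and 10, a mean of at least 100, TMM scaling, library weights, only the groups compared, DESeq2 1.42.0 and edgeR 4.0.16 on the recovered reads, and each library left out. P-values set group differences against the spread between animals of 1 experiment.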

Additional observations from a re-analysis of the deposited data

How the results depend on the processing

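No paired analysis was possible because the numbers in the labels differ between the groups and so pair no libraries. None of the results changed sign while called. Of the 5 TAM genes, 2 were called in controls with the main settings, 1 with only the groups compared, and 1 to 2 when 1 library was left out. In PS, 1 was called with the main settings, 2 with library weights, 2 with DESeq2, and 0 to 2 with 1 library left out. In AS, 2 were called with the main settings, 0 with only the groups compared, and 0 to 2 with 1 library left out. In the average, 2 were called in every alternative run. No stress or interaction contrast called any of the 5 in any alternative. The 5 genes were chosen with these DEX and stress differences in view, so nothing is read from these counts.

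Of the 85 pathway genes, 2 were called in controls, 4 with DESeq2, 0 with only the groups compared, and 0 to 4 with 1 library left out. In PS, 1 was called, 7 with library weights, 4 with DESeq2, and 0 to 1 with 1 library left out. In AS, 1 was called, 11 with library weights, 2 with DESeq2, 0 with only the groups compared, and 0 to 2 with 1 library left out. In the average, 7 were called, 15 with library weights, and 3 (without dep2_dex_42) to 9 with 1 library left out. The fit with only the groups compared was not run for the average, which uses all groups, and it rests on fewer libraries. The cause of the other changes was not tested.

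Over all genes, the average DEX contrast called 625 genes by limma, 904 by DESeq2, 622 by edgeR, 1328 with library weights and 356 without dep2_dex_42. The contrast within AS called 100, and 1402 and 11 in the last 2 of these. In PS it called 529 with library weights and 30 without dep1_sal_68 (0.703% of all genes with the main settings), and in controls 183, 437 by DESeq2 and 72 without con_dex_122. The background shares in the report move with these counts. With library weights, 2 TAM and 7 pathway genes in PS stood beside 529 of all 14504 genes. In AS, 3 TAM and 11 pathway genes stood beside 1402, and in the average 15 pathway genes beside 1328. Shares of all genes with DESeq2 in PS and AS, and with only the groups compared, are not given. Those counts have no background here, so nothing is read from them. The 5 genes had at least 324 reads in every library.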
